A study of Homo sapiens with 18 samples.

Results

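Tumours of the human neuroblastoma line SKNAS were compared between an Hmx1 arm and a control arm. The 6 libraries with SKNAS in their titles, 3 per arm, were taken from the 18 libraries of the series. The other 12 libraries are tumours of the lines LAN-1 and KELLY in the same arms and serve here only for a test of differences between lines. SKNAS is an established line, also written SK-N-AS, that lacks amplification of MYCN. Each sample is a xenograft tumour taken after the mouse was sacrificed. The labels give no strain and no treatment for either arm. They do not say whether the gene was raised or lowered, from which species its sequence came, whether the cells were a clone or a pool, what the age of the mice was, or whether each library is a separate animal. The p-values therefore rest on library-to-library spread alone, and that spread may be technical. RNA was read from a stranded mRNA library as pairs of 125 bp reads on 2 lanes. Levels are in TPM, the deposited measure of transcript abundance that is scaled for gene length and for the total of the library.

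HMX1 is a homeobox transcription factor of the NKL class, known from developing sympathetic and sensory ganglia, where it takes part in the choice between noradrenergic and cholinergic neurons. Neuroblastoma arises from the sympathoadrenal lineage of the neural crest. Its cells are often described along an axis from an adrenergic state, with HAND2, GATA3 and catecholamine enzymes, to a mesenchymal state, with matrix genes and factors such as SNAI2 and NOTCH2.

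The files hold 63677 gene identifiers, of which 16379 reached 1 TPM in at least 3 of the 6 SKNAS libraries and were tested with limma on log2(TPM + 1). Replicates within an arm correlated at 0.975 to 0.983 across genes. The first principal component held 52.7% of the variance and separated the arms. The second held 15.4% and set control 2, at -34.6, apart from controls 1 and 3, at 18.9 and 15.7. Mitochondrially encoded genes took 15.4, 21.2 and 16.5% of TPM in controls 1, 2 and 3, and 19.2, 17.1 and 14% in Hmx1 libraries 1, 2 and 3. The tables give no read counts, so the depth is unknown.

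HMX1 (ENSG00000215612, chromosome 4, 8847802 to 8873543, minus strand, GRCh37 coordinates of the files) was listed at 0 TPM in all 3 control libraries. It stood at 1.24, 0.193 and 0.411 TPM in Hmx1 libraries 1, 2 and 3. The arms did not overlap, and the two-sided exact permutation test gave p = 0.1, the smallest that 3 libraries against 3 can give. HMX1 reached 1 TPM in a single library and so did not enter the test across genes. No source used here states whether the tables count reads from an introduced copy, or from a copy of another species, so these values do not check the labels.

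The paralogue HMX2 (ENSG00000188816, chromosome 10, 124907638 to 124910188, plus strand) read 7.22, 5.53 and 9.47 TPM in controls and 15.9, 21.6 and 16.5 TPM in Hmx1 libraries. All Hmx1 libraries lay above all controls, and HMX2 rose by 1.19 on the log2 scale (SE 0.21, limma adjusted p = 0.00919). HMX2 also sits in a series of 4 neighbouring genes on chromosome 10 that rose together, with ACADSB, BUB3 and CHST15. HMX2 and CHST15 were called with any 1 library left out, while ACADSB lost the call in 5 of those 6 fits and BUB3 in 4. HMX3, the third member, did not reach the level for testing, at 0.454, 0.321 and 1.55 TPM in controls and 0.436, 0.112 and 0.399 TPM in Hmx1 libraries. Among 9 tested members of the HMX and NKX homeobox list, DLX6 rose by 1.11, and DLX5 rose by 0.83 but lost the call in 5 of the 6 fits that left out 1 library. MYCN stayed at or below 0.10 TPM in every library.

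At a limma adjusted p under 0.05, 942 genes (5.75% of those tested) rose and 876 (5.35%) fell in Hmx1 tumours. Of these, 762 (4.65% of the tested genes) changed by a log2 of at least 1, with 438 rises and 324 falls. The arms did not overlap for 5232 genes (31.9%). Most called genes were protein coding, with 752 rises and 756 falls among 12679 tested genes of that class. In a bulk library, fewer cells of a type and less RNA per cell cannot be told apart, which applies to every difference given here. Leaving out Hmx1 1, 2 or 3 lowered the rises to 562, 561 and 562, and the falls to 466, 478 and 502. Without control 1 the falls numbered 517. Without control 2, the library that stood apart, there were 735 rises and 714 falls.

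The largest rises of protein-coding genes, in order, were those of CCL2, NPTX2, MAGEA12, MAGEA2B and CSAG1, and the last 3 are cancer-testis genes described further on. CCL2, a chemokine that attracts monocytes, was at 3.18, 4.59 and 3.10 TPM in controls and at 253, 178 and 168 TPM in Hmx1 libraries. Every Hmx1 library lay far above every control, a ratio of means of 55.1 and a log2 change of 5.43 (SE 0.19, limma adjusted p = 7.95e-06). NPTX2, a secreted neuronal pentraxin that binds AMPA receptors at synapses, was at 8.76, 6.31 and 6.17 TPM in controls and at 272, 216 and 334 TPM in Hmx1 libraries. The ratio of means was 38.7 and the log2 change 5.08 (SE 0.19, limma adjusted p = 7.95e-06). IL32, a proinflammatory cytokine, went from 2.94, 2.99 and 2.70 TPM to 52.0, 27.1 and 32.4 TPM. It rose by 3.25, with Hmx1 1 the highest library. ADCYAP1R1, the receptor for the neuropeptide PACAP, rose from 1.67, 0.989 and 1.90 TPM to 16.1, 20.9 and 17.9 TPM, a log2 change of 2.95. LHX8, a LIM homeobox factor of forebrain cholinergic neurons, rose from 5.49, 3.48 and 6.47 TPM to 38.1, 37.3 and 39.2 TPM, with the Hmx1 libraries close together.

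Among the other genes with the largest rises, FGL1, a secreted liver protein, rose by 2.89 to 219, 184 and 207 TPM. ARMCX2, an armadillo gene of the X chromosome, rose by 3.11 to 55.2, 58.1 and 57.6 TPM from 5.43 to 6.18 TPM. ZNF22 and ZFP82, zinc finger genes, were at 0.446 TPM or less in every control and at 9.65 TPM or more in every Hmx1 library. ABCC8, the sulphonylurea receptor that forms a potassium channel with KCNJ11, rose by 2.95. KCNJ11, its pore subunit and neighbour on chromosome 11, rose by 1.01. CCND1, the cyclin that drives entry into the cell cycle with CDK4 and CDK6, rose from 3.86, 3.73 and 3.89 TPM to 28.8, 29.4 and 27.5 TPM, a log2 change of 2.61. Of the 50 genes with the largest changes, 25 per direction, 44 were tested and called under all 17 alternative settings. The other 6, among them UBD, were not tested at a mean of at least 5 TPM and were called under the rest.

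**Figure D1:**
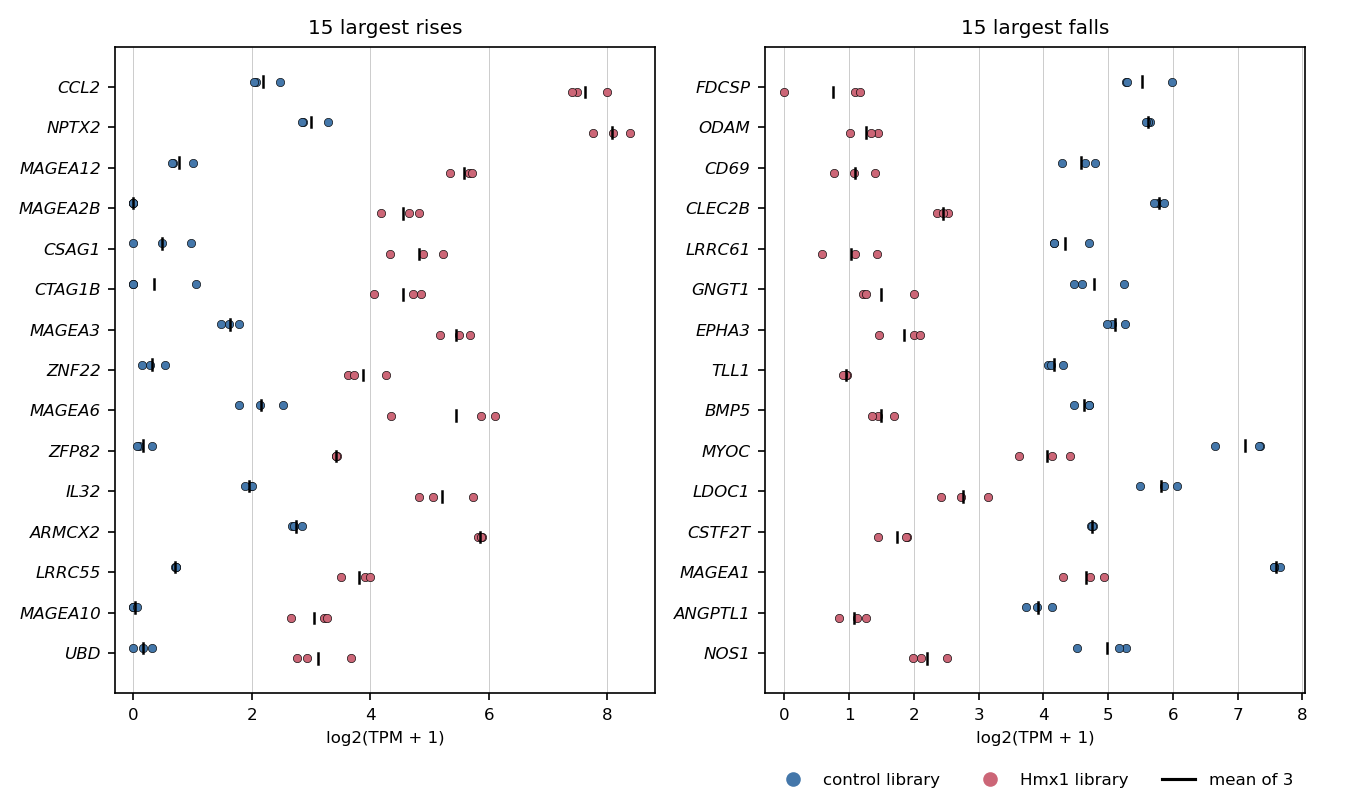
log2(TPM + 1) of the 15 largest rises (left) and the 15 largest falls (right), each gene with its 3 control and 3 Hmx1 libraries as points and the mean of 3 as a bar. Genes were drawn only from those whose arms do not overlap.

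CCL2 was one of several chemokine and cytokine genes that rose. These signals are often controlled by NF-kB, a transcription factor family that answers TNF and pathogen signals. Of 27 matched CC and CXC chemokines and their receptors 9 were tested, of which 6 rose and none fell, with a median log2 change of 0.96. With 1 library left out, 4 to 6 rose. Only 4, CCL2, CXCL6, CXCL10 and CXCR4, were called in every such fit. Over all tested genes 5.75% rose and the median was -0.01. CXCL10 and CXCL6, below 1 TPM in every control, entered the test through the Hmx1 libraries alone and could not be called as falls. The filter thus raises the share of rises in this list. Of 16 tested interleukins and haematopoietic cytokines, 4 rose and 1 fell (median 0.10), and TNF entered in the same way. Of 22 tested NF-kB feedback genes and targets, 4 rose and 1 fell (median 0.27). In the fit of all 18 libraries, 5 NF-kB genes rose and 3 fell, and 2 interleukin genes fell. CXCL10, a ligand that recruits T cells, was at 0.453, 0 and 0.229 TPM in controls and at 6.29, 4.49 and 4.81 TPM in Hmx1 libraries, a log2 change of 2.34. CXCL6, a neutrophil chemokine, was at 0.0794 TPM or less in controls and at 4.18, 2.34 and 3.04 TPM in Hmx1 libraries, a log2 change of 2.01. CXCR4, the receptor for CXCL12, rose by 1.82. TNF itself was at 0, 0 and 0.0792 TPM in controls and at 4.55, 2.96 and 1.85 TPM in Hmx1 libraries. It rose by 1.95, and LTB, the related lymphotoxin beta, rose by 1.63.

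RELB, an NF-kB subunit of the noncanonical pathway, rose from 3.07, 2.70 and 3.04 TPM to 14.7, 6.19 and 9.13 TPM, a log2 change of 1.41 (SE 0.27, limma adjusted p = 0.014). ICAM1, an adhesion molecule for leukocytes, rose by 1.58, and IER3, an early response gene, by 0.96. BIRC3, an inhibitor of apoptosis, rose by 0.99, but the call was lost without Hmx1 1 (and also without Hmx1 3). TRAF1, an adaptor of TNF receptors, fell by 0.77 and lost the call in 5 of the 6 fits that left out 1 library. IL12A, a subunit of interleukin 12, fell by 1.05 from 14.5, 14.1 and 14.5 TPM to 6.04, 6.05 and 7.26 TPM. UBD, a ubiquitin-like modifier, was at 0.244 TPM or less in controls and at 11.7, 5.79 and 6.62 TPM in Hmx1 libraries, a log2 change of 2.96. Its gene overlaps GABBR1, so reads could be shared.

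The promoters of 2 of these genes are shown because they hold matches to the NF-kB consensus, which is in capitals. The sequences are from the RefSeq promoter table on GRCh38.p14 and give bases upstream of the start that lie outside exons, 5′ to 3′ on the strand of the gene. CXCL10 is at chr4:76023498-76023747 on the minus strand and BIRC3 at chr11:102317234-102317449 on the plus strand. NPTX2, at chr7:98617035-98617284 on the plus strand, is shown for contrast, since it rose more than either and holds no match.
CXCL10: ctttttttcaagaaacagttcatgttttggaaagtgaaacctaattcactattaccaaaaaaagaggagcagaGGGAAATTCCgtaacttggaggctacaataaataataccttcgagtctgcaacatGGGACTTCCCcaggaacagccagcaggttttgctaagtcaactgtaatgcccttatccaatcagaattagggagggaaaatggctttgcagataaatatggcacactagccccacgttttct
BIRC3: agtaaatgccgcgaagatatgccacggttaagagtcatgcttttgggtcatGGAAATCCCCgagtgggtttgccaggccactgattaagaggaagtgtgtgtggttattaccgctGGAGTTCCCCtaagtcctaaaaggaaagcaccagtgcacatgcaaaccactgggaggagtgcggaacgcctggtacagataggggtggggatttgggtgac
NPTX2: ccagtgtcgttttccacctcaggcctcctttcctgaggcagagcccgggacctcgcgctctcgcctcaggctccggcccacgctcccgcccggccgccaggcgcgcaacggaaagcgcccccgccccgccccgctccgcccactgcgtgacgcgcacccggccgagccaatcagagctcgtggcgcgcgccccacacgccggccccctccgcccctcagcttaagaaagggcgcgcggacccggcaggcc
Both strands were searched within 250 bases before the start. Over all 27305 promoters in the table, 9.57% hold a match to this consensus. The share was 11.6% for the 10276 tested protein-coding genes with a promoter, 15.3% for 570 rises and 12.4% for 604 falls. Among 8 called rises of the chemokine, cytokine and NF-kB lists with a promoter in the table, 5 hold a match. The NF-kB list is made of feedback genes and targets of this factor, and the share among uncalled members of these lists was not computed. That count therefore cannot be set against the shares above. A match is a description of letters and not a binding site. CCL2, the largest rise, has no entry in the table.

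The genes of antigen presentation moved in different directions. CD74, the invariant chain that guides MHC class II molecules, rose from 0.116, 0.618 and 0.469 TPM to 7.80, 5.60 and 3.89 TPM, a log2 change of 2.25. Of 4 tested MHC class II genes, 2 rose, the other being HLA-DPA1, whose call was lost without Hmx1 1 or Hmx1 2. CD74 entered the test through the Hmx1 libraries alone. PSMB8 and PSMB9, subunits of the immunoproteasome that lie side by side on chromosome 6, fell by 1.16 and 1.70. PSMB8 was at 59.6, 56.4 and 57.6 TPM in controls and 28.3, 20.3 and 28.4 TPM in Hmx1 libraries. Of 18 tested genes of MHC class I and peptide loading, 3 rose and 5 fell (median -0.34), beside 5.75 and 5.35% of all tested genes. The falls numbered 2 in 5 of the 6 fits that left out 1 library, the exception being the fit without Hmx1 1, with 4, and the rises 1 without control 1, Hmx1 1 or Hmx1 3. HLA-F, a nonclassical class I gene, rose by 1.33, and the HLA genes share near-identical stretches, so their single values are uncertain. Of 30 tested interferon response genes, 1 rose and 3 fell (median -0.28), and 7 fell in the fit of all 18 libraries. BST2, which tethers virus particles to the membrane, rose by 1.24, while ISG20 and IFI44L fell by 1.44 and 0.96.

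Markers of host leukocytes are given beside these immune genes. Of 14 matched leukocyte genes 2 were tested, and PTPRC, which encodes CD45, rose by 1.31 from 102, 75.7 and 97.9 TPM to 187, 285 and 220 TPM. PTPRC also sits in a series of 3 neighbouring genes on chromosome 1 that rose together, with NEK7 and ATP6V1G3. All 3 were called with any 1 library left out. TYROBP and CD3E were listed at 0 in all 6 libraries, and ITGAM, ITGB2, LAPTM5 and AIF1 were at or below 0.236 TPM. The summed level of the leukocyte list was 78.7 to 106 TPM in controls and 191 to 288 TPM in Hmx1 libraries, nearly all of it PTPRC. CD14, a monocyte receptor, was at 1.10, 1.26 and 1.65 TPM in controls and at 0.732, 0.578 and 0.258 TPM in Hmx1 libraries and did not pass (limma adjusted p = 0.0951). Their part in the chemokine result was not tested. No source used here states how mouse reads were handled.

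Cancer-testis genes, which are normally read only in the germ line, changed in both directions. Of 44 matched MAGE and related genes 21 were tested, of which 14 rose and 2 fell, with a median log2 change of 2.01. Some, such as MAGEA2B, MAGEA10, PAGE4 and PASD1, entered the test through the Hmx1 libraries alone and could not be called as falls. The filter thus raises the share of rises. With 1 library left out, 12 or 13 rose and 2 fell. MAGEA12 was at 1.004, 0.583 and 0.566 TPM in controls and at 49.7, 39.6 and 51.8 TPM in Hmx1 libraries, a log2 change of 4.81. MAGEA2B was listed at 0 in all controls and stood at 24.2, 17.1 and 27.4 TPM in Hmx1 libraries. MAGEA10, PAGE4 and PASD1 were at or below 0.0507 TPM in all controls and at 2.31 TPM or more in all Hmx1 libraries. MAGEA3 and MAGEA6 rose by 3.82 and 3.29, and CTAG1B, the gene of the antigen NY-ESO-1, by 4.19.

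The opposite held for MAGEA1, which was at 200.5, 188 and 188 TPM in controls and at 25.3, 18.8 and 29.7 TPM in Hmx1 libraries, a log2 change of -2.94. MAGEC1 fell by 2.48, to 6.68, 6.35 and 8.47 TPM from 43.8, 44.3 and 44.6 TPM. Both falling genes were well expressed in controls, whereas the rising genes named above were at 4.78 TPM or less there. CTAG2 was high in both arms and rose by 0.62. MAGEA2B, MAGEA3, MAGEA6, MAGEA12 and CTAG1B belong to sets of near-identical copies, so the split of reads among them is uncertain. In gene order on the X chromosome, PASD1, MAGEA10, GABRA3, MAGEA6, MAGEA2B, MAGEA12, CSAG1 and MAGEA3 formed a series of 8 neighbouring rises.

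The largest falls included 2 compact groups of neighbouring genes. On chromosome 4, ODAM, FDCSP and CSN3 belong to the family of secretory calcium-binding phosphoproteins, which is known from teeth, saliva and milk. FDCSP was at 37.7, 62.3 and 38.2 TPM in controls and at 1.13, 0 and 1.23 TPM in Hmx1 libraries, a log2 change of -4.77 (SE 0.34, limma adjusted p = 0.000155). ODAM was at 49.1, 47.8 and 46.8 TPM in controls and at 1.71, 1.02 and 1.52 TPM in Hmx1 libraries, a log2 change of -4.35 (SE 0.15, limma adjusted p = 7.95e-06). CSN3, the kappa casein gene, fell by 1.98. Of 6 tested members of this family 3 fell and none rose. On chromosome 12, CD69, CLEC2B, CLEC2A and CLEC1A encode members of the C-type lectin family. CLEC2B was at 53.7, 57.4 and 51.1 TPM in controls and at 4.76, 4.13 and 4.48 TPM in Hmx1 libraries, a log2 change of -3.33. CD69, an early activation marker of lymphocytes, fell by 3.50 from 26.9, 24.0 and 18.5 TPM to 1.65, 0.705 and 1.11 TPM. The neighbours TMEM52B and GABARAPL1 fell by 2.11 and 1.37, so that 6 genes in a row fell there. Of 7 tested genes of the lectin cluster 5 fell, also with any 1 library left out.

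Several signalling and developmental genes fell by a similar amount. EPHA3, an ephrin receptor of axon guidance, fell by 3.25 from 37.2, 32.2 and 30.6 TPM to 2.98, 1.75 and 3.25 TPM. TLL1, a protease of the tolloid family that processes collagen and releases BMPs, fell by 3.22 from 15.9, 16.3 and 18.8 TPM to 0.954, 0.935 and 0.880 TPM. BMP5, a BMP ligand, fell by 3.13 from 25.2, 25.1 and 21.3 TPM to 2.23, 1.72 and 1.57 TPM. In each of these genes every Hmx1 library lay far below every control. NOS1, the neuronal nitric oxide synthase, fell by 2.79, and HMGA2, a chromatin protein of embryonic tissue, by 2.72 from 55.0, 51.1 and 49.0 TPM to 8.33, 5.63 and 7.28 TPM. IRS2, an adaptor of the insulin and IGF receptors, fell by 2.54 from 59.4, 75.8 and 61.9 TPM to 10.04, 9.47 and 11.8 TPM. MYOC, FGF5, LDOC1 and TRPS1 fell by 2.46 to 3.06. GNGT1 fell by 3.29 but overlaps TFPI2, which fell by 2.05, and CSTF2T lies within PRKG1, so these reads could be shared.

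HMX proteins are known to bind the core CAAGTG. The promoter of TLL1, at chr4:165872987-165873236 on the plus strand, is shown because it holds this core, in capitals. That of ODAM, at chr4:70195475-70195724 on the plus strand, is shown as a larger fall with no match.
TLL1: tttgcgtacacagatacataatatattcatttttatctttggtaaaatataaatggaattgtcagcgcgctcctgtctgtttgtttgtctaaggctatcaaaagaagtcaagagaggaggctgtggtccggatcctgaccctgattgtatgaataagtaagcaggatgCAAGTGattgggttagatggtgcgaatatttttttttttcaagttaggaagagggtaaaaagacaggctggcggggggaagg
ODAM: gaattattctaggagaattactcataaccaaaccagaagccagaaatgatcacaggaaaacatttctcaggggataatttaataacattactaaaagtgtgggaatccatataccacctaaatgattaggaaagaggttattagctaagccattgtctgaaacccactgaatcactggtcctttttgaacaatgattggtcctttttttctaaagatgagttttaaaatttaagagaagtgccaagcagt
On both strands of the same window, the core was found in 9.6% of all 27305 promoters and in 6.85% of those of tested protein-coding genes. It was found in 8.25% of the promoters of rises and 6.62% of those of falls. No difference between these shares was tested. FDCSP and CLEC2B have no entry in the table.

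Of 19 tested noradrenergic transcription factors, which define sympathetic neurons, 3 fell and none rose (median -0.13), beside 5.35% of all tested genes that fell. In the fit without Hmx1 3, 1 of these factors rose. HAND2, a factor of sympathetic neuron development, was at 277, 275.5 and 330 TPM in controls and at 239.9, 256 and 240.5 TPM in Hmx1 libraries, and did not pass (log2 change -0.26, limma adjusted p = 0.16). ISL1, a LIM homeobox factor, did not pass either (-0.06, limma adjusted p = 0.766). TFAP2B, a neural crest factor that supports noradrenergic differentiation, fell by 2.27 from 23.2, 26.0 and 27.2 TPM to 3.66, 5.93 and 4.10 TPM. LMO1, a neuroblastoma susceptibility gene, fell by 0.68, but not without Hmx1 1 (and not without Hmx1 2). GATA3 was at 5.81, 5.38 and 6.37 TPM in controls and at 13.5, 16.9 and 6.31 TPM in Hmx1 libraries, so the arms overlapped and it did not pass.

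The enzymes of catecholamine synthesis did not move together. TH, the rate-limiting enzyme, fell by 1.81 from 3.06, 2.55 and 3.03 TPM to 0, 0.137 and 0.184 TPM (SE 0.18, limma adjusted p = 0.000635). TH entered the test through the controls alone and could not be called as a rise. DDC, the next enzyme, was at 18.9, 26.4 and 18.9 TPM in controls and 32.5, 55.0 and 37.5 TPM in Hmx1 libraries. It rose by 0.91, but the call was lost without control 1 (and also without control 3, Hmx1 2 or Hmx1 3). DBH, which makes noradrenaline, was at 133, 98.7 and 145.9 TPM in controls and at 81.3, 65.7 and 91.6 TPM in Hmx1 libraries, and just missed the threshold (log2 change -0.65, limma adjusted p = 0.0523). QDPR, which recycles the cofactor of TH, fell by 0.83. The granins of the storage vesicle went opposite ways, CHGA rising by 0.89 and CHGB falling by 0.89, and each lost the call in 4 of the 6 fits that left out 1 library. Of the 16 tested genes of this list 2 rose and 3 fell (median 0.02), beside 5.75 and 5.35% of all tested genes.

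Cholinergic genes also went both ways, with 2 rises and 4 falls among 15 tested (median -0.09), beside 5.75 and 5.35% of all tested genes. SLC5A7, the choline transporter of cholinergic terminals, fell by 1.51 from 8.30, 10.4 and 8.07 TPM to 2.04, 3.09 and 2.34 TPM. CHRNA9, a nicotinic receptor subunit, fell by 1.55 to 0.202 TPM or less. CHRNA9 entered the test through the controls alone and could not be called as a rise. CHRNA7, the alpha7 nicotinic subunit, rose by 1.01 from 7.42, 6.18 and 9.46 TPM to 16.4, 15.7 and 16.7 TPM, and LHX8 is the other rise. CHAT, the enzyme that makes acetylcholine, was at 2.08, 1.90 and 3.62 TPM in controls and at 0.747, 0.910 and 1.29 TPM in Hmx1 libraries and did not pass (limma adjusted p = 0.0636). SLC18A3, the vesicular transporter, and CHRM2, a muscarinic receptor, fell by 0.77 and 0.73, and each lost the call in 5 of the 6 fits that left out 1 library. SLC18A3 and CHAT overlap. CHRNA3, at 677 to 837 TPM in controls and 662 to 776 TPM in Hmx1 libraries, and VIP, at 57.5 to 78.9 TPM and 54.7 to 82.4 TPM, had overlapping arms.

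**Figure D2:**
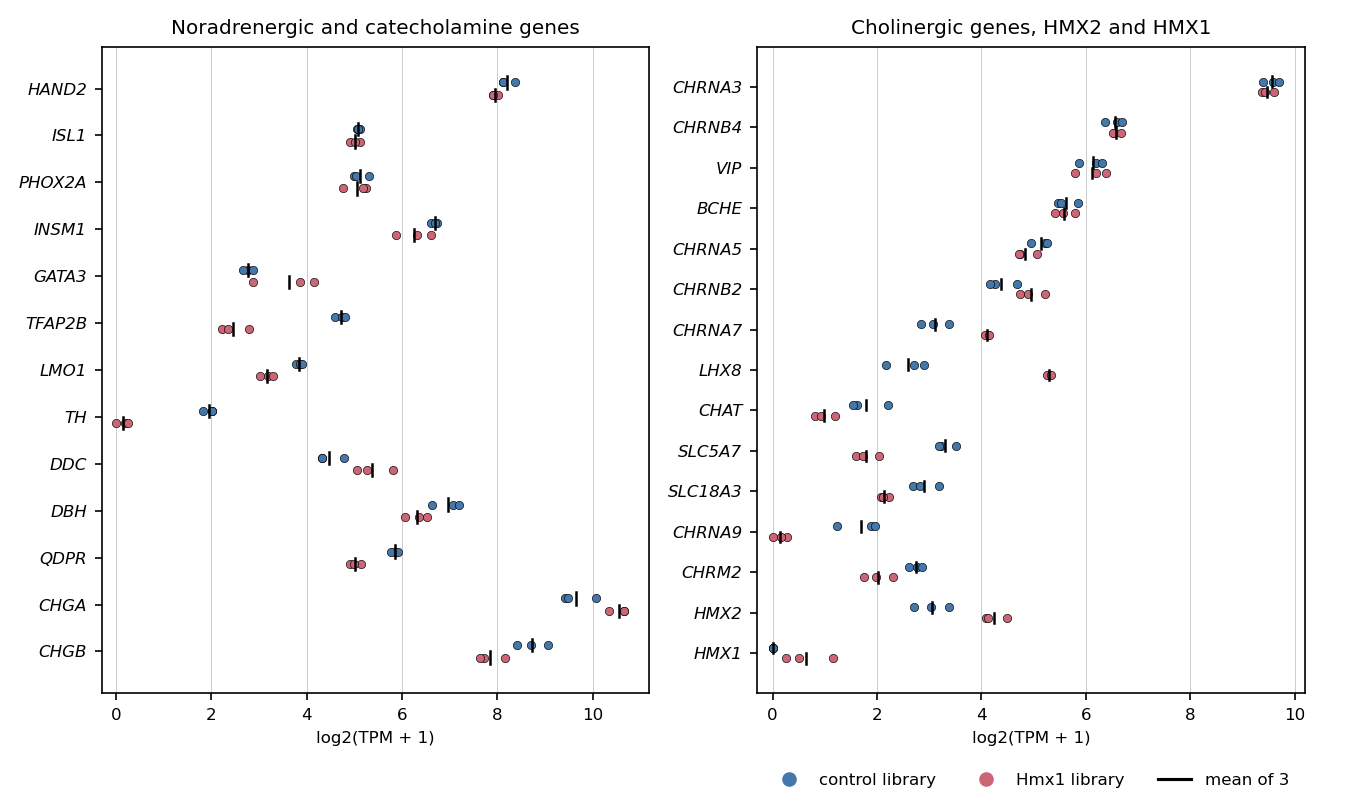
log2(TPM + 1) of noradrenergic and catecholamine genes (left) and of cholinergic genes with HMX2 and HMX1 (right), with 3 control and 3 Hmx1 libraries as points and the mean of 3 as a bar. TFAP2B and TH have separate arms with Hmx1 lower, and LHX8, CHRNA7 and HMX2 separate arms with Hmx1 higher.

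Of neuronal genes beyond the transmitter lists 9 rose and 4 fell among 31 tested (median 0.07), beside 5.75 and 5.35% of all tested genes. The rises numbered 5, 5 and 4 without control 1, Hmx1 2 and Hmx1 3. NEFM, a neurofilament subunit, rose by 1.51 from 1.08, 0.837 and 1.18 TPM to 4.04, 4.47 and 5.95 TPM. NPTX1, the relative of NPTX2, rose by 1.85. TUBB2B, a tubulin of migrating neurons, fell by 1.47, and SNAP25, a protein of synaptic vesicle fusion, by 0.80 from 111.1 to 121.7 TPM in controls to 66.5 to 67.7 TPM in Hmx1 libraries. Among neuropeptides, GAL, which encodes galanin, rose by 1.25 from 226, 215 and 180 TPM to 524, 413 and 554 TPM. TAC3, the gene of neurokinin B, rose by 2.03, while TAC1, the gene of substance P, fell by 1.60. PAM, which amidates peptide hormones, fell by 0.91. Of 20 tested peptides and granins 3 rose and 2 fell (median -0.03).

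Among genes of electrical excitability, sodium and calcium channels and transmitter receptors were called mostly as rises. Voltage-gated potassium channels were called both ways, beside 5.75% rises and 5.35% falls over all tested genes. Of 17 tested sodium and calcium channel genes 5 rose and none fell (median 0.10), and 2 rose without Hmx1 1 or Hmx1 2 and 3 without control 1 or control 2 or in the fit of all 18 libraries. CACNA2D2, an auxiliary calcium channel subunit, rose by 2.12 from 3.55, 4.22 and 5.32 TPM to 16.9, 27.6 and 23.3 TPM. Of 19 tested transmitter receptors 4 rose and 1 fell (median 0.25). HTR3A, a serotonin-gated channel, rose by 2.23, with 12.9 TPM in Hmx1 2 against 5.48 and 5.80 TPM in Hmx1 1 and 3 and at most 0.95 TPM in controls. HTR3A entered the test through the Hmx1 libraries alone and could not be called as a fall. GRIK5, a kainate receptor subunit, rose by 1.23, and GRM4, a metabotropic glutamate receptor, fell by 1.003. Of 28 tested voltage-gated potassium channel genes 4 rose and 3 fell (median 0.03). With any 1 library left out at most 2 rises and 1 fall were called in this list.

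Mesenchymal transcription factors and collagens were called mostly as falls, while matrix glycoproteins and proteoglycans were called both ways. Over all tested genes 5.75% rose and 5.35% fell. Of 27 tested mesenchymal and neural crest transcription factors 7 fell and 1 rose (median -0.13), and the falls numbered 4 without Hmx1 1 or Hmx1 3. In the fit of all 18 libraries 2 rose. NOTCH2 fell by 1.23 from 23.6, 23.3 and 24.0 TPM to 9.61, 8.19 and 10.9 TPM. SNAI2, a repressor of epithelial genes, fell by 0.997 from 10.6, 9.42 and 8.59 TPM to 4.27, 4.33 and 4.19 TPM. SIX4, a homeobox factor, fell by 1.58, and MEOX2, a homeobox gene of mesoderm, rose by 1.11. VIM, an intermediate filament of mesenchymal cells, was abundant in both arms and fell by 0.55 from 634, 660 and 587 TPM to 403, 443 and 433 TPM.

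Of 24 tested collagens 8 fell and none rose (median -0.42), and 4 fell without Hmx1 3. In the fit of all 18 libraries 5 fell and 2 rose, and without control 3 there was 1 rise. COL12A1, a collagen that bridges fibrils, fell by 2.32 from 90.7, 78.7 and 135 TPM to 18.1, 18.9 and 20.1 TPM. COL5A2 fell by 1.29 from 53.8, 63.1 and 68.1 TPM to 24.6, 24.9 and 23.9 TPM. COL1A1 and COL3A1, the main fibrillar collagens, fell by 0.70 and 0.62. COL1A1 was not called without Hmx1 2 or Hmx1 3, nor COL3A1 without control 3, Hmx1 1 or Hmx1 3. Of 54 tested matrix glycoproteins and proteoglycans 10 rose and 12 fell (median -0.11), and 6 rose without Hmx1 2. Of 12 tested integrins 1 rose and none fell (median -0.08). None of these rose without control 1, Hmx1 1 or Hmx1 2, and 1 fell without control 2. LAMA2, a laminin chain, fell by 2.43, SPP1, which encodes osteopontin, by 2.18 and LUM, which encodes lumican, by 0.81. FBLN5, an elastic fibre protein, rose by 1.46. Of 39 tested extracellular proteases and inhibitors 4 rose and 9 fell (median -0.28). TLL1, among these falls, entered the test through the controls alone and could not be called as a rise. ADAMTS5, an aggrecanase, fell by 2.10. TIMP3, an inhibitor of such proteases, rose by 2.59 from 10.3, 8.33 and 9.60 TPM to 58.0, 66.0 and 61.2 TPM.

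Genes of the cadherin family, which join cells to each other, gave 5 falls and no rise among 17 tested (median -0.39). Falls made up 5.35% of all tested genes and rises 5.75%. CDH12, a neuronal cadherin, fell by 2.43 from 20.2, 15.2 and 21.5 TPM to 3.39, 2.00 and 2.74 TPM. DSG2, a desmosomal cadherin, fell by 1.94, and PCDH10, a protocadherin, by 1.77. Immunoglobulin adhesion genes gave 5 rises and 3 falls among 29 tested (median -0.10), and 1 fall when any library other than control 2 was left out. CADM1, a synaptic adhesion molecule, rose by 1.38 and NRCAM, which binds axonal ankyrin, fell by 0.94.

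Markers of host fibroblasts and pericytes are given beside the matrix genes. Of 13 tested, 1 rose and 4 fell, the 4 being PDGFRA, LUM, COL1A1 and COL3A1, and the single rise RGS5. The falls numbered 2 without Hmx1 1 or Hmx1 3, and RGS5 was not called without Hmx1 2 or in the fit of all 18 libraries. The summed level of the list was 1634 to 1869 TPM in controls and 1464 to 1709 TPM in Hmx1 libraries. PI16 was listed at 0 in all 6 libraries and MFAP5 was at or below 0.0824 TPM, while DCN, PDGFRB, ACTA2 and CSPG4 did not pass. Among endothelial genes 3 were tested, of which 1 rose, TEK, and 1 fell, ENG. Both were called with any 1 library left out. TEK, an angiopoietin receptor, rose by 1.03, while SOX17 was listed at 0 and CLDN5 was at or below 0.0862 TPM in every library. The part of host cells in the matrix result was not tested.

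Growth factor genes changed on both sides of several pathways, beside 5.75% rises and 5.35% falls over all tested genes. Across the tested members of all lists, 13.5% rose and 16.3% fell. Of 9 tested FGF ligands and receptors 4 fell and 1 rose (median -0.47). FGF5 fell by 2.73, FGF10, a mesenchymal ligand, by 2.37 and FGF2 by 0.94. FGFR1 fell by 0.68 from 105, 96.6 and 95.4 TPM to 61.3, 63.5 and 59.4 TPM. FGF14, which binds sodium channels inside the cell rather than acting as a ligand, rose by 1.97. Of 23 tested other receptor tyrosine kinases 2 rose and 4 fell (median 0.08), and 2 fell without Hmx1 1, 2 or 3 or in the fit of all 18 libraries. RET, the GDNF receptor of sympathetic precursors, fell by 0.87 from 117.3, 113.8 and 132 TPM to 64.4, 69.9 and 63.7 TPM. ALK, mutated in some neuroblastomas, was listed at 0 in all controls and stood at 1.16, 1.07 and 1.32 TPM in Hmx1 libraries. ALK entered the test through the Hmx1 libraries alone and could not be called as a fall.

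The BMP, Wnt and Notch counts stand beside 5.75% rises and 5.35% falls over all tested genes. Across the tested members of all lists the shares were 13.5% and 16.3%. In BMP and TGF-beta signalling 3 genes rose and 5 fell among 32 tested (median 0.00). SMAD7, an inhibitor of both branches, rose by 1.98 from 4.33, 4.66 and 4.29 TPM to 20.8, 20.1 and 20.3 TPM. BMPR1B, a type I receptor, rose by 1.01. Of 34 tested Wnt genes 4 rose and 5 fell (median -0.04). Without Hmx1 1, 2 and 3 the rises numbered 2, 2 and 1, and without control 3, Hmx1 1 or Hmx1 3 the falls numbered 3. In the fit of all 18 libraries 2 rose. DKK2, a secreted modulator, fell by 2.21 from 67.6, 53.7 and 56.6 TPM to 11.8, 11.5 and 12.6 TPM, and RSPO2, which enhances Wnt signals, by 1.66. WNT10A rose by 1.32. In Notch signalling 2 genes rose and 4 fell among 17 tested (median 0.02), and 1 rose when any library other than Hmx1 2 was left out. DNER, a neuronal Notch ligand, rose by 2.37 from 0.122, 0.0422 and 0.535 TPM to 5.64, 5.07 and 5.14 TPM. DNER entered the test through the Hmx1 libraries alone and could not be called as a fall. HES1, a direct Notch target, fell by 1.11, and DLK1, a noncanonical ligand, by 0.82.

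The next lists also stand beside 5.75% rises and 5.35% falls over all tested genes, and 13.5% and 16.3% over tested list members. In insulin-like growth factor signalling 3 genes rose and 5 fell among 18 tested (median -0.14). None of the rises was called without control 1 or without any 1 Hmx1 library, while the falls numbered 5 in every such fit. In the fit of all 18 libraries 1 gene rose. IGF2BP1 and IGF2BP2, RNA-binding proteins that act on IGF2 and other messages, fell by 1.69 and 1.35. STC1, a secreted glycoprotein placed in the same list, fell by 1.62. Among guidance genes, SEMA3A, a repellent of sympathetic axons, fell by 1.43 and EPHA8 rose by 1.78. Of 42 tested semaphorins, plexins, netrins, slits and robos 4 rose and 7 fell (median -0.01). The falls numbered 2 without control 1, control 3 or Hmx1 1 and 3 without Hmx1 3, which also left 2 rises. In retinoic acid handling 3 of 18 genes rose and 5 fell (median -0.26). The rises numbered 1 without control 1, control 3 or Hmx1 3, and the falls 3 when any library other than control 2 was left out. CRABP1, a cytoplasmic retinoic acid carrier, fell by 1.82 from 1582, 1365 and 1376 TPM to 386, 435 and 403 TPM. ALDH1A2, an enzyme that makes retinoic acid, rose by 2.18, and NRIP1, a corepressor, fell by 1.91.

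Of 50 cell cycle genes, all tested, 2 rose and 7 fell (median -0.22), beside 5.75% rises and 5.35% falls over all tested genes. The falls numbered 2 without control 1, Hmx1 1 or Hmx1 3 and 4 without control 2 or Hmx1 2 or in the fit of all 18 libraries. CCND1 rose as described and CCND2, another D cyclin, rose by 1.67 from 0.0629 TPM or less. CCND2 entered the test through the Hmx1 libraries alone and could not be called as a fall. CDK1, the mitotic kinase, fell by 0.92 from 236, 196 and 201 TPM to 114.4, 111.8 and 106.9 TPM. RRM2, a ribonucleotide reductase subunit, fell by 0.87.

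MYC, the growth regulator (chromosome 8, 128747680 to 128753674), was at 25.03, 12.2 and 24.7 TPM in controls and at 4.47, 4.27 and 3.999 TPM in Hmx1 libraries. The arms did not overlap, control 2 was the lowest control, and MYC fell by 1.98 (SE 0.26, limma adjusted p = 0.00281). PVT1, the long noncoding RNA gene next to it, was picked out after its values were seen. It went the other way, from 22.9, 35.5 and 27.7 TPM to 59.5, 73.1 and 57.2 TPM, a log2 change of 1.13 (limma adjusted p = 0.00544).

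Ribosomal protein, protein folding and sterol synthesis genes were each called in 1 direction. Of 36 tested ribosomal protein genes 6 rose and none fell (median 0.32), beside 5.75 and 5.35% of all tested genes. The rises numbered 4 with any 1 library left out and in the fit of all 18 libraries. RPL4 rose by 1.12 from 1963, 1701 and 1460 TPM to 3470, 3628 and 3960 TPM, and RPL22 by 1.16 from 272, 334 and 304 TPM to 638, 687 and 699 TPM. Ribosomal genes have many processed copies, so their values are uncertain. TUBB, a beta tubulin with near-identical relatives, rose by 2.19 from 698, 389 and 662 TPM to 2354, 2521 and 2876 TPM. Of 26 unfolded protein response genes 7 fell and none rose (median -0.29), and HSPA5, the main chaperone of the endoplasmic reticulum, fell by 0.79. The falls numbered 4, 3 and 4 without controls 1, 2 and 3, and 3 and 2 without Hmx1 1 and 2. Of 31 cholesterol and fatty acid genes 7 fell and none rose (median -0.37), with 4 and 11 falls without controls 1 and 2 and 1, 3 and 2 without Hmx1 1, 2 and 3. In the fit of all 18 libraries 2 unfolded protein response genes and 2 cholesterol and fatty acid genes fell.

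MT-ATP6, a mitochondrially encoded subunit of ATP synthase, fell by 1.97 from 20821, 28936 and 24885 TPM to 7426, 6229 and 5400 TPM. It overlaps MT-ATP8 and MT-CO3, which did not pass, with log2 changes of -0.15 and 0.20. Of the 15 mitochondrially encoded genes 1 rose and 1 fell (median 0.05). The rise, MT-RNR1, lost the call under 11 alternative settings, and MT-ATP6 under none that tested it.

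**Figure D3:**
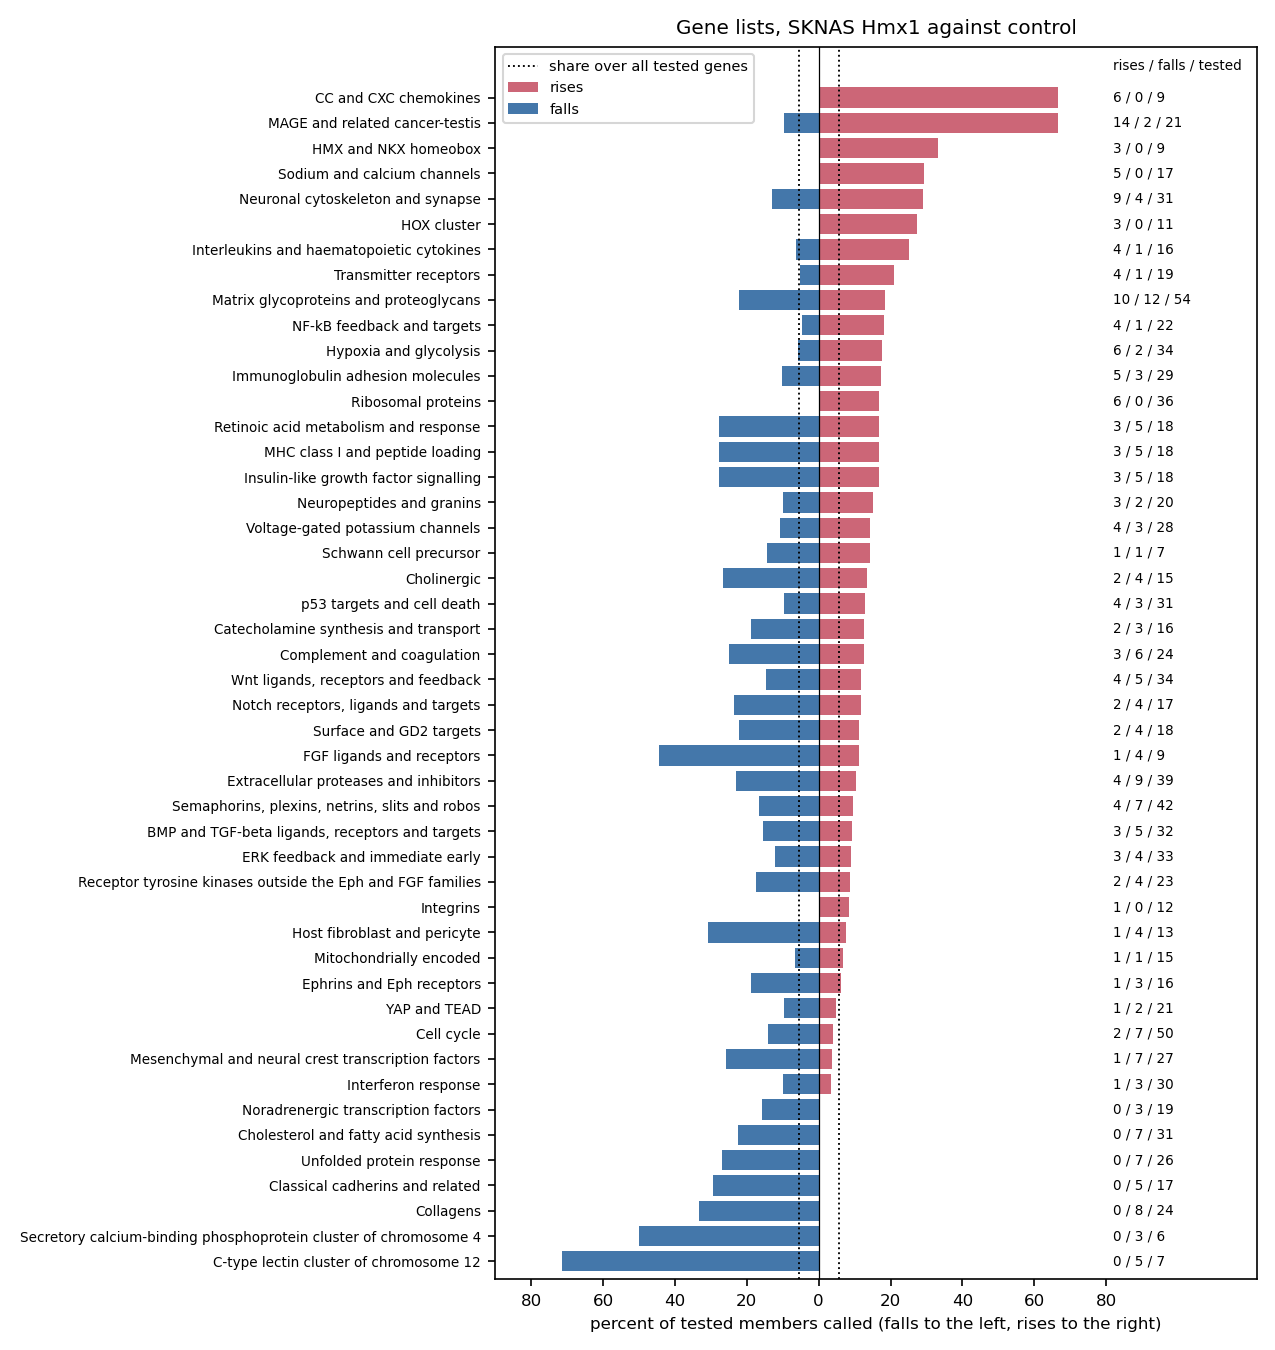
Percent of the tested members of each of 47 lists that rose (right) or fell (left), with rises, falls and members tested in figures at the right and dotted lines at the shares over all tested genes, 5.75% and 5.35%. Chemokines (6 of 9) and cancer-testis genes (14 of 21) have the highest shares of rises, and the chromosome 12 lectins (5 of 7) the highest share of falls.

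Called genes also clustered along chromosomes. In windows of 10 Mb with at least 15 tested genes, 287 in all, the median log2 change lay between -0.18 and 0.20 at the 5th and 95th percentiles. The highest window was chromosome 13 from 70 to 80 Mb, with a median of 0.88 and 12 rises and no fall among 21 genes. Its medians against the control mean were 0.85, 0.85 and 0.94 in Hmx1 libraries 1, 2 and 3. On that chromosome a series of 10 neighbouring genes rose by 0.52 to 1.65, among them SLAIN1, EDNRB, RBM26, NDFIP2 and SPRY2. In every fit that left out 1 library 7 of the 10 were called, and SPRY2 was called in none of these 6 fits. EDNRB, the endothelin receptor of the neural crest, changed the most of these, from 14.9, 12.8 and 16.6 TPM to 46.9, 45.2 and 52.3 TPM. RBM26, an RNA-binding protein, rose by 1.15 from 35.3, 36.7 and 38.9 TPM to 81.8, 86.6 and 81.4 TPM. Chromosome 13 as a whole had 53 rises and 6 falls among 256 genes (23% called, median 0.27), beside 11.1% over all chromosomes.

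On chromosome 8 from 120 to 130 Mb 24 of 42 genes rose and 1 fell (median 0.68), and the fall was MYC. ATAD2, NTAQ1, FBXO32, FAM91A1, TMEM65, TRMT12, RNF139, TATDN1, NDUFB9 and MTSS1 made up a series of 10 rises there. ATAD2, a bromodomain protein, rose by 0.74 from 94.5, 79.1 and 102 TPM to 149, 161 and 150 TPM. On chromosome 1 the first 10 Mb held 54 rises and no fall among 134 genes (median 0.63). The next 10 Mb held 25 rises and 1 fall among 94 (median 0.41). Genes there include RPL22, CAMTA1, a transcription activator that rose by 0.93, KIF1B, a kinesin of axonal transport that rose by 0.87, and PARK7, an antioxidant protein that rose by 0.76 from 255, 276 and 241 TPM to 397, 432 and 477 TPM. Rises of neighbouring genes thus included members of lists described above, such as RPL22 and HMX2.

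The lowest window was chromosome 21 from 10 to 20 Mb, with 5 falls among 19 genes (median -0.43). On chromosome 10 from 50 to 60 Mb 8 of 30 genes fell and none rose (median -0.41). Just beyond it CISD1, UBE2D1, TFAM and BICC1 fell in a row, then CDK1, RHOBTB1 and TMEM26, so CDK1 fell together with its neighbours. TFAM, the mitochondrial transcription factor, fell by 0.55. Of CISD1, UBE2D1, TFAM and BICC1, only BICC1 was called with any 1 library left out, and TFAM lost the call in 4 of those 6 fits. On chromosome 14, NOVA1, a neuronal splicing factor, PRKD1 and G2E3 fell, NOVA1 by 1.01. The 5 zinc finger genes of chromosome 19, ZNF83, ZNF611, ZNF600, ZNF28 and ZNF468, fell by 0.91 to 1.93, of which 3 were called with any 1 library left out, and have close relatives nearby, so their values are uncertain. In all, 43 series of at least 3 neighbouring called protein-coding genes were found, 28 of rises and 15 of falls. Without control 2 there were 28 of them, and without Hmx1 1, 2 and 3 there were 25, 21 and 21. The same windows in the other lines had medians of 0.10 and 0.06 (chromosome 13, 70 to 80 Mb), -0.34 and 0.14 (chromosome 8) and -0.13 and -0.04 (chromosome 1, first 10 Mb) in LAN-1 and KELLY, and the difference between lines was not tested for windows. DNA copy number was not analysed here.

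**Figure D4:**
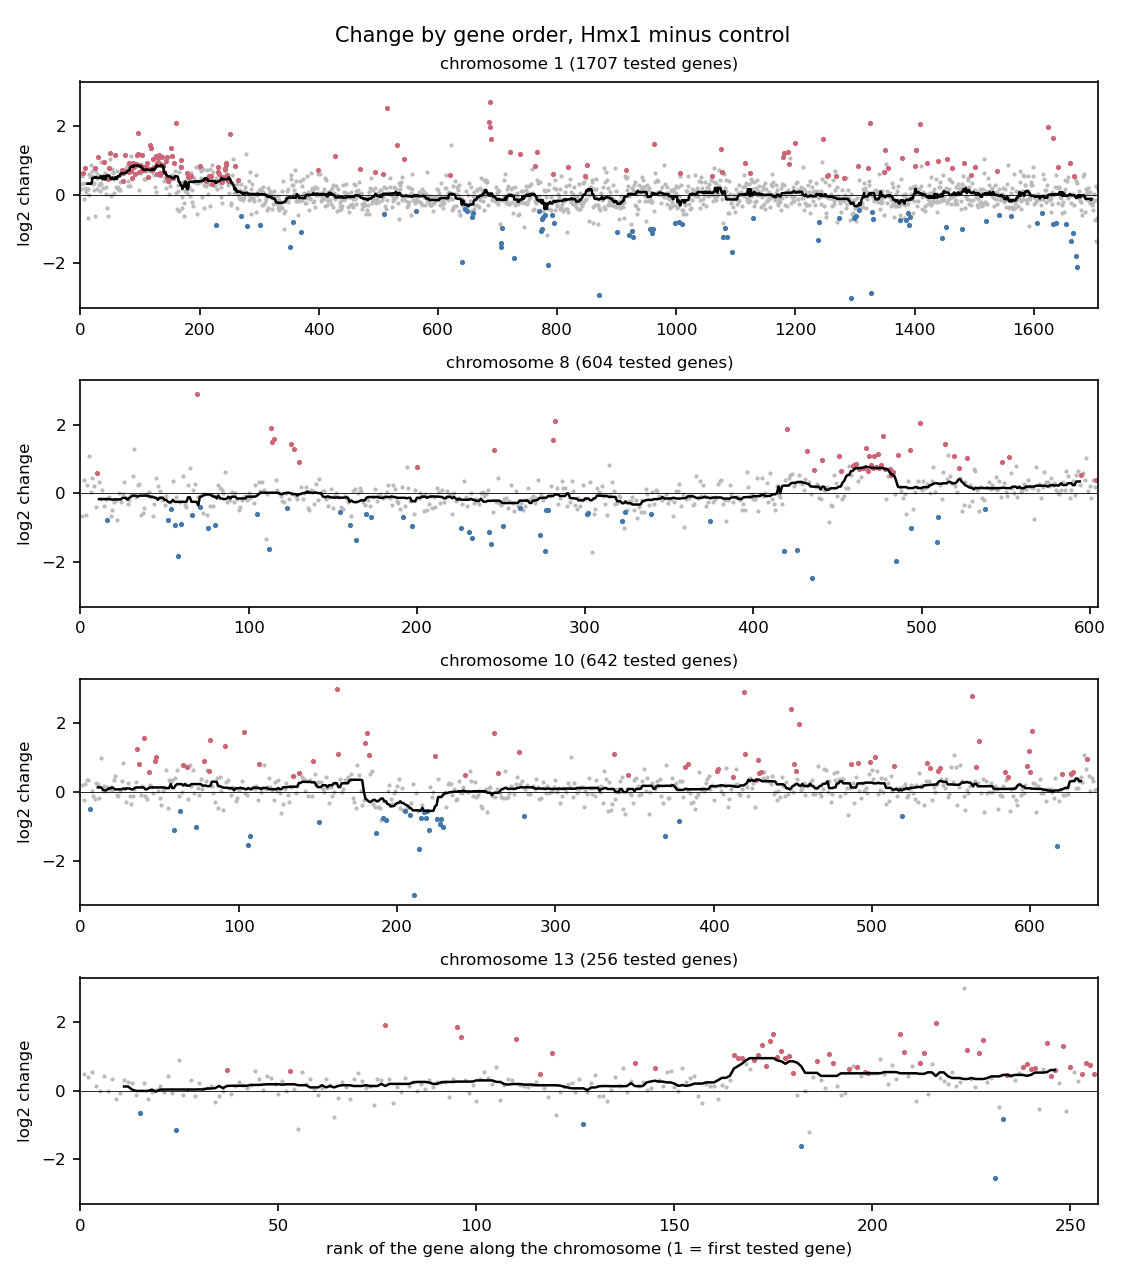
log2 change, Hmx1 minus control, of each tested gene by its rank along chromosomes 1, 8, 10 and 13, drawn up to 3 in either direction, with red for rises, blue for falls and a running median over 21 genes as a line. The line stands above 0 over the first genes of chromosome 1 and over stretches late on chromosomes 8 and 13, and below 0 over a stretch of chromosome 10.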

How the data were processed

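Gene tables of 18 xenograft tumours were deposited, and the 6 SKNAS libraries (3 control, 3 Hmx1, by title, numbered in accession order) were compared. Per the file headers, the authors' tables hold TPM, FPKM and coverage signal per gene. The coverage signal of the deposited tables was not used. Per the submitters' processing notes, the software bcl2fastq, STAR and FastQC and 2 builds, GRCh38.p12 and GRCh37, are listed without a role. The coordinates in the files are those of GRCh37, judged from the last gene end of chromosome 1 (249231242). Not given in the sources used here are the counting tool, the annotation, the use of strand and any removal of mouse reads. The tables hold no read counts, so precision by depth cannot be given.

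TPM was summed over lines with the same gene identifier (10 to 13 repeated lines per library), and genes at 1 TPM or more in at least 3 of the 6 libraries were kept. A gene below 1 TPM throughout 1 arm entered only if all 3 libraries of the other arm reached 1 TPM. Such a gene could be called only as higher in that other arm. limma 3.58.1 (R 4.3.3) was fitted to log2(TPM + 1), a pseudocount of 1, with a mean trend in the prior, on the 6 libraries. The Benjamini-Hochberg adjustment ran over 16379 genes. Fold changes on this scale understate the change of low genes. The difference from the other lines was a contrast in a fit of all 18 libraries. HMX1 and HMX3 were compared by a two-sided exact permutation test (scipy 1.17.1). The code was tested on simulated data. Of the identifiers, 52181 matched a gene symbol.

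The members and the 53 gene lists were chosen with earlier results of these data known. Named genes are the 25 largest changes per direction among protein-coding genes (mean of at least 5 TPM in the higher arm, arms not overlapping), up to 4 called members of each list per direction, the 10 most abundant called genes per direction, the 5 largest changes per direction of other classes, members of series of neighbouring called genes, list members at 0 in the other arm, the HMX genes, MYCN, and the noradrenergic and cholinergic genes. Markers of host cells are named beside them. Some genes that the rule covers are not reported here. Promoter letters came from the RefSeq table on GRCh38.p14, in which 10276 of 12679 tested protein-coding genes had an entry. Alternatives were pseudocounts of 0.1 and 5, no filter, a mean of at least 5 TPM, FPKM, other scalings, a fit of 18 libraries, a prior without a trend, array weights, and leaving out each library.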

Additional observations from a re-analysis of the deposited data

Results flagged for a closer look

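The 5 largest rises and the 5 largest falls in SKNAS were compared with the mean change in LAN-1 and KELLY tumours by a limma contrast over all 18 libraries. The genes were chosen for their change in SKNAS, which is part of this contrast, so the differences are given as a description. The difference is on the log2(TPM + 1) scale, SKNAS minus the mean of the others. Of all tested genes 1189 (7.26%) passed this contrast at an adjusted p under 0.05, and all 10 genes were among them. For CCL2 the difference was 5.61 (SE 0.26), with changes of 0.01 in LAN-1 and -0.37 in KELLY. For NPTX2 it was 5.14. For MAGEA12 it was 5.57, with a lower mean in the Hmx1 arm of LAN-1 (-0.75) and of KELLY (-0.78), and for CSAG1 it was 5.09 in the same way. For MAGEA2B the difference was 4.21 (SE 0.53), with changes of 0.14 and 0.55 in LAN-1 and KELLY.

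Among the falls the difference was -4.77 for FDCSP, -4.35 for ODAM, -3.50 for CD69 and -3.33 for CLEC2B. These 4 genes were listed at 0 in all 12 libraries of the other lines, where they could not fall, so each difference is the SKNAS change itself and says nothing on how the lines respond. For LRRC61, which reached 43.3 TPM in the other lines, the difference was -3.35 (SE 0.25). HMX2, which is not among the 10, rose by 1.19 in SKNAS with changes of 0.69 in LAN-1 and -0.03 in KELLY, and the difference of 0.86 did not pass (limma adjusted p = 0.0667).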

How the results depend on the processing

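No paired analysis was possible because the replicate numbers come from accession order and pair no libraries. Of the 17 alternatives, none reversed a called named gene or the sign of a 10 Mb window named here. The arms of every called gene were separate, so leaving out 1 library or changing the pseudocount could not reverse it. Named genes that were not called were not checked for a reversal. Of 428 named genes called, 309 were tested under all of them and 176 of these kept the call throughout. The fit of 18 libraries ended 83 named calls, no filter 92, and leaving out 1 library 68 to 126. With a mean of at least 5 TPM, which left 12074 genes to test, the rises numbered 513 and the series of neighbouring genes 26, against 942 and 43. With no filter, which put 30480 genes in the test, 8.44% of tested list members rose and 8.78% fell, against 13.5 and 16.3%. With 1 library left out, rises ranged from 561 to 955, falls from 466 to 714, the share of list members that rose from 8.62 to 12.2% and that fell from 10.8 to 14.5%, and series from 21 to 41. The contrast with the other lines called 780 genes at a pseudocount of 0.1 and 1682 from FPKM against 1189, the cause was not tested, and 909 to 1168 with 1 SKNAS library left out. Depth is unknown, so low genes carry unstated counting error.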
